A study of Mus musculus with 37 samples.

Results

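The microRNAs described here are those of whole blood from mice of the learning group at 16.5 months of age, compared with mice of the same group at 13.5 months. These are the largest of the 4 age groups: 11 libraries at 16.5 months and 12 at 13.5 months, 23 of the 37 small RNA libraries. All animals were single-housed male C57BL/6 mice trained repeatedly in the water maze, a spatial memory task in which a hidden platform must be found. They were habituated at 12 months, the platform was moved to another quadrant at each later test, and at each of these later tests blood was drawn from the retro-orbital sinus once the memory test was over. The study's methods place the first draw, at the youngest age, before any behavioural work. No mice without training, genetic change or treatment stand beside them here, so the 16.5-month mice were older and had also been through more rounds of training, and age, training and any difference in handling between collection times cannot be told apart. The study's methods describe a longitudinal cohort bled at every age, so libraries of the 2 ages come at least in part from the same mice, but the labels do not say whether a replicate number marks the same mouse. Both ages have more libraries than the study gives mice per age in its memory test. Whether libraries of 1 age are separate animals rests on their being separate samples in the labels. The tests treat libraries as independent, and their p-values measure the spread between these libraries. Every mature microRNA in the table of raw read counts was considered, 1915 in all, with the first row of each taken where a microRNA that arises from several precursors had several rows. The study's methods describe summed rows instead. With rows summed, the split of the calls given further on moved from 19 higher and 24 lower to 15 and 28.

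MicroRNAs are short RNAs that are cut from hairpin precursors and loaded into Argonaute proteins, where they pair with messenger RNAs and lower their translation or stability. Bases 2 to 8 from the 5′ end, the seed, carry most of the pairing, so microRNAs that share a seed are grouped into families with overlapping targets. Either strand (arm) of a hairpin, named 5p and 3p, can become the mature microRNA. In whole blood most microRNA comes from red cells, which are rich in miR-486, miR-451a, miR-16 and miR-92a, with smaller amounts from white cells (miR-223 and miR-142 in myeloid cells, miR-150 and miR-181 in lymphocytes) and platelets. RNA from all these cells was sequenced together, so fewer cells of a type and less of a microRNA per cell cannot be told apart.

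The sequences that carry the main differences are printed here. They come from RefSeq (GRCm38.p6), which gave a sequence for 73 of the 87 microRNAs with enough reads to be tested, are written 5′ to 3′, and have the seed in capitals. The miR-30 members were higher at 16.5 months and had the seed GUAAACA, whereas the let-7 members were lower and had the seed GAGGUAG. Of the let-7 members shown, let-7d-5p did not pass the test. Within these sets the sequences differed at few positions, between 1 and 5 for the miR-30 members shown and between 1 and 6 for the let-7 members. Reads were counted with no mismatch allowed.
miR-30a-5p: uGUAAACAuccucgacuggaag
miR-30c-5p: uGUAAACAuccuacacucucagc
miR-30e-5p: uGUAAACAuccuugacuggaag
let-7a-5p: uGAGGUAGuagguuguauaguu
let-7c-5p: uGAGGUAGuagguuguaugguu
let-7d-5p: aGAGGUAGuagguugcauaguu
let-7f-5p: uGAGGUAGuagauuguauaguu
let-7g-5p: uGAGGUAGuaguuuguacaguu
let-7i-5p: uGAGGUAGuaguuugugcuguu

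The next set holds the other seeds with more than 1 microRNA lower at 16.5 months. miR-103-3p and miR-107-3p differed at 1 position, so their reads are separated by a single base. In the miR-15/16 and miR-181 families some members were called lower and others were not.
miR-103-3p: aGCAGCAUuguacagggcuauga
miR-107-3p: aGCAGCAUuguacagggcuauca
miR-15a-5p: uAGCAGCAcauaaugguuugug
miR-15b-5p: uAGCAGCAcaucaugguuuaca
miR-16-5p: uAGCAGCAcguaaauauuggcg
miR-181a-5p: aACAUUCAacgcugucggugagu
miR-181b-5p: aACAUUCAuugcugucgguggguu
miR-181c-5p: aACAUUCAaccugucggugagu
miR-181d-5p: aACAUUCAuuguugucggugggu

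The last set holds microRNAs whose seed no other tested microRNA with a sequence had, apart from miR-26a-5p and miR-130b-3p, and the opposite arms that enter the ratios below. miR-425-5p, miR-26a-5p and miR-144-5p were higher at 16.5 months, miR-1198-5p and miR-130b-3p were lower, and miR-3969 had the largest difference of the microRNAs with few reads.
miR-425-5p: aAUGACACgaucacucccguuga
miR-26a-5p: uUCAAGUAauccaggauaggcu
miR-144-5p: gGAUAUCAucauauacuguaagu
miR-1198-5p: uAUGUGUUccuggcuggcuugg
miR-130b-3p: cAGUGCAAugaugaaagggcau
miR-130b-5p: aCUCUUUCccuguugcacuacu
miR-30a-3p: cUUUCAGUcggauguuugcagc
miR-3969: cCCUAAAGuagaaaucacua

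Libraries held between 3735106 and 15462085 first-row reads at 13.5 months and between 4551355 and 14562443 at 16.5 months. The erythroid miR-486a-5p took 87.6% ± 3.58 (SD) of the reads, counted without the identical miR-486b-5p row, in the 12 younger libraries and 89.0% ± 2.76 in the 11 older ones, which is 1.43 percentage points more (p = 0.293, two-sided permutation test, 100000 resamples). Its row and that of miR-486b-5p had the same counts in every library, and the first-row totals include both. Outside these rows 162621 to 993255 reads remained at 13.5 months and 189416 to 1131713 at 16.5 months, and the mean difference of 0.09 in their log2 number was not significant (p = 0.805, permutation test). The number of microRNAs with a read was 418 ± 63.4 and 438 ± 62.3, which also did not differ beyond the spread (p = 0.464, permutation test). At 13.5 months replicates 1 and 4 stood apart, with 283 and 327 microRNAs detected against 384 to 497 in the other libraries of that age, and replicate 1 had a scaling factor of 0.309. Calls and ratios that rest on these libraries are given with and without them.

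The main filter asked for over 100 reads in 50% or more of the 37 libraries, which left 87 microRNAs. Of these, 43 differed between 16.5 and 13.5 months at an adjusted p under 0.05 (49.4%; edgeR quasi-likelihood F-test on all 37 libraries, Benjamini-Hochberg adjustment), 19 of them higher at 16.5 months (21.8%) and 24 lower (27.6%). The size of the difference among the 43, as the absolute log2 fold change, ranged from 0.27 to 1.72 with a median of 0.69. It exceeded 2-fold for 4 microRNAs that were higher (miR-144-5p, miR-30c-5p, miR-30b-5p and miR-186-5p) and 4 that were lower (miR-532-5p, miR-92a-3p, miR-1198-5p and let-7i-5p). Over all 87 the median log2 fold change was -0.05. Without replicates 1 and 4 at 13.5 months 35 microRNAs passed, 16 higher and 19 lower, and all 35 were among the 43. The split depended on the scaling. With libraries scaled by their total reads alone the median of the 87 moved to -0.21 and 23 passed, 5 higher and 18 lower, of which 22 were among the 43. No microRNA of the 43 changed its direction in any of 16 alternatives, and 18 passed in every alternative that tested them, 5 higher and 13 lower. The 5 higher were miR-144-5p, miR-30a-5p, miR-30b-5p, miR-30c-5p and miR-425-5p. They were also the only ones called higher with library totals alone.

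Levels are given as reads per 1000000 reads of a library (CPM) after edgeR's TMM scaling, and they are compared between ages within 1 microRNA. For 6 of the 87 microRNAs (6.9%) the 2 ages did not overlap at all. miR-425-5p, miR-30c-5p and miR-26a-5p were higher in every 16.5-month library than in any 13.5-month library, and let-7i-5p, miR-378c and miR-107-3p were lower in every one.

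**Figure D1:**
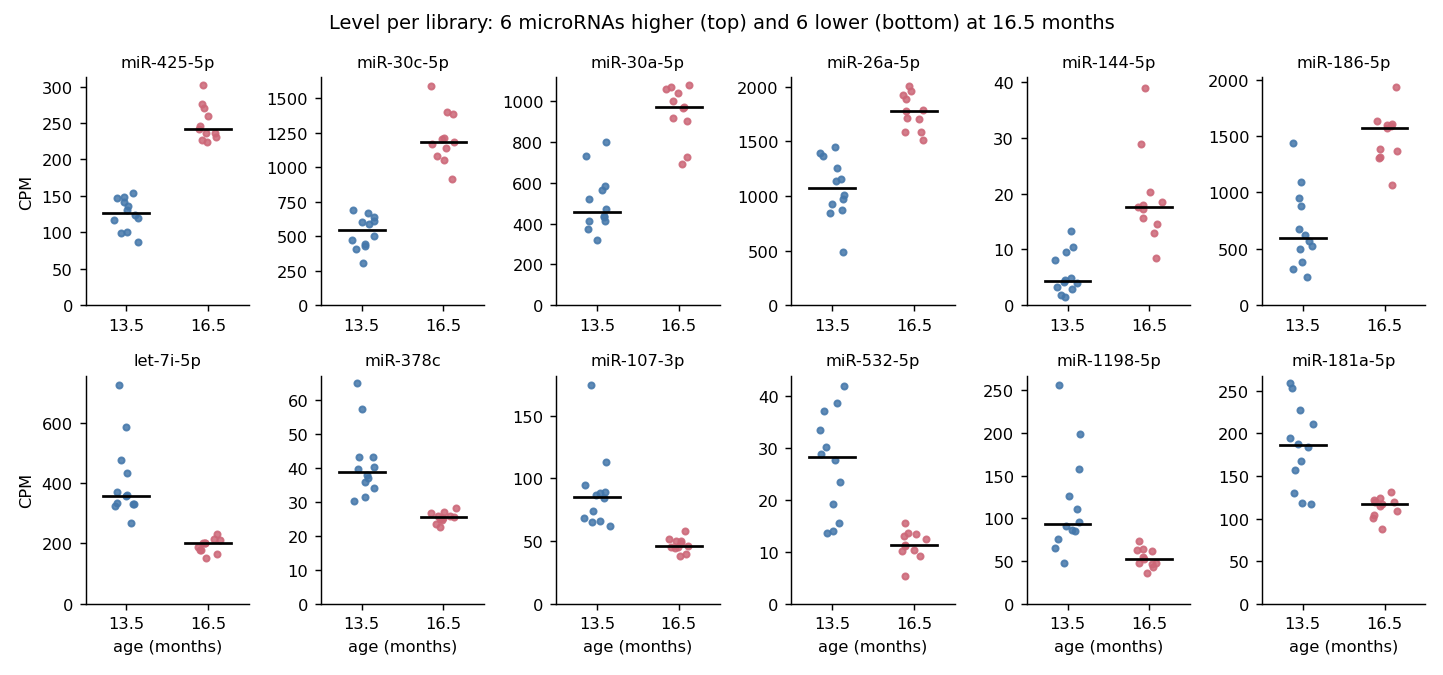
Level in CPM (y axis, from 0) of 12 microRNAs in each library at 13.5 months (blue, 12 points) and 16.5 months (red, 11 points), with the median as a line. The top row holds the 6 microRNAs called higher with the smallest p and the bottom row the 6 called lower with the smallest p. For miR-425-5p, miR-30c-5p, miR-26a-5p, let-7i-5p, miR-378c and miR-107-3p the points of the ages do not overlap.

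The miR-30 family stood out among the microRNAs that were higher. All 5 tested 5p arms rose, against 21.8% of all 87, with a median log2 fold change of 0.91 beside -0.05. miR-30c-5p, produced from precursors on chromosomes 1 and 4, had between 305.1 and 686 CPM at 13.5 months (median 542) and between 913 and 1585 CPM at 16.5 months (median 1179). Each 16.5-month library lay above all 13.5-month libraries, and the log2 fold change was 1.19 ± 0.13 (SE; adjusted p = 1.74e-09, edgeR). miR-30a-5p (chr1:23272274-23272295, plus strand) ranged from 320.3 to 801 CPM at 13.5 months (median 456) and from 692 to 1079.7 at 16.5 months (median 974). Here 9 of 11 older libraries exceeded every younger one, and the log2 fold change was 0.91 ± 0.14 (adjusted p = 1.14e-06, edgeR).

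miR-30b-5p had the lowest levels of the family and moved as much as miR-30c-5p. It had 10.04 to 60.7 CPM at 13.5 months (median 31.8) and 56.2 to 105.8 at 16.5 months (median 78.2), so that 10 of 11 older libraries lay above all younger ones. Its log2 fold change was 1.19 ± 0.22 (adjusted p = 3.32e-05, edgeR). miR-30e-5p, which lies beside a copy of miR-30c in an intron of Nfyc, rose less, from a median of 138 CPM (53.9 to 289) to a median of 249.9 (172 to 280.5), a log2 fold change of 0.62 ± 0.17 (adjusted p = 0.00278, edgeR). The ranges of miR-30e-5p overlapped widely, since the highest 13.5-month library lay above all older ones. miR-30d-5p moved least, from a median of 1129 CPM (757 to 1511) to 1414 (1079 to 1732), with a log2 fold change of 0.27 ± 0.11 and an adjusted p of 0.0297. Its call was the least firm of the family: it passed in 6 of 16 alternatives and was lost when any of 12 single libraries was left out, with an adjusted p of up to 0.851 over the alternatives. Without replicates 1 and 4 at 13.5 months its log2 fold change was 0.19 (adjusted p = 0.202).

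The passenger arm of the same precursor did not follow. miR-30a-3p was lower at 16.5 months, with 6.16 to 17.9 CPM (median 14.4) against 12.2 to 26.6 at 13.5 months (median 16.7), a log2 fold change of -0.36 ± 0.15 (adjusted p = 0.0443). That call was lost in 13 of the 23 omissions of a single library and in 6 of 16 alternatives.

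miR-425-5p and miR-191-5p, which lie 464 bases apart on chromosome 9 in an exon of the noncoding gene 4833445I07Rik, were both higher. miR-425-5p (chr9:108568789-108568811, plus strand) had 86.6 to 154 CPM at 13.5 months (median 127) and 224 to 302 CPM at 16.5 months (median 242). The groups were fully separate, and the log2 fold change of 0.997 ± 0.0955 had the smallest p of all 87 (adjusted p = 1.51e-10, edgeR). miR-191-5p, among the most abundant microRNAs of these libraries, had 3501 to 13894 CPM (median 6169) and 8398 to 17674 CPM (median 10457), a log2 fold change of 0.60 ± 0.16 (adjusted p = 0.00208). For miR-191-5p 9 of 12 younger libraries lay below every older one, while the highest of them lay well inside the older range. Of the miR-26 family, miR-26a-5p rose from 490.3 to 1449.6 CPM (median 1071) to between 1512 and 2011 CPM (median 1779), with no overlap and a log2 fold change of 0.72 ± 0.12 (adjusted p = 7.89e-06). Its relative miR-26b-5p, which differs from it at 2 positions over the shared length, had a log2 fold change of 0.04 ± 0.26 and did not pass (adjusted p = 0.928).

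Several microRNAs without a tested family member were higher too. miR-186-5p, from an intron of Zranb2, had 251 to 1437 CPM at 13.5 months (median 596) and 1063 to 1935 CPM at 16.5 months (median 1573), a log2 fold change of 1.12 ± 0.20 (adjusted p = 1.55e-05). miR-140-3p, from a precursor in Wwp2 that is best known from cartilage, rose from a median of 703 CPM (567 to 975) to 990.1 CPM (859.7 to 1252), a log2 fold change of 0.49 ± 0.11 (adjusted p = 5.20e-04). miR-484 had a median of 387 CPM (148 to 559) and 557 CPM (401 to 728), with a log2 fold change of 0.61 ± 0.16 (adjusted p = 0.00169). These groups overlapped in every case, with 5 to 7 of the 11 older libraries above all younger ones. miR-421-3p rose from a median of 101 CPM (65.1 to 121) to 134 CPM (108 to 195), a log2 fold change of 0.44 ± 0.11 (adjusted p = 0.00136). With library totals only miR-186-5p (adjusted p = 0.071), miR-140-3p (0.442), miR-484 (0.235) and miR-421-3p (0.444) did not pass. Without a filter on reads miR-140-3p (0.175), miR-484 (0.0649) and miR-421-3p (0.256) did not pass either.

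Among microRNAs of red cells, miR-144-5p had the largest difference. Its 13.5-month libraries held 1.39 to 13.4 CPM (median 4.40) and its 16.5-month libraries 8.44 to 38.9 CPM (median 17.6), a log2 fold change of 1.72 ± 0.29 (adjusted p = 7.89e-06, edgeR). At the lower end this level rests on few reads, 4 in the library with the fewest. miR-144-5p did not meet a filter of over 100 reads in 50% or more of the 23 compared libraries. It passed in the 15 alternatives that tested it. miR-451a, processed from the neighbouring hairpin without Dicer, had 624 to 5760.3 CPM (median 2093) and 1954 to 8556 CPM (median 4283), and its log2 fold change of 0.71 ± 0.37 did not pass (adjusted p = 0.111). It did pass without replicate 12 at 13.5 months (0.86, adjusted p = 0.0492), and in 4 of the 16 alternatives. With 1 and 2 RUVs factors, which adjust for unwanted variation, it had 0.68 and 0.59 (adjusted p = 4.66e-08 and 3.91e-06). With a block for replicate number it had 0.98 (adjusted p = 0.0322). With the TMM reference that called the most higher it had 0.79 (adjusted p = 0.0476). miR-486a-5p differed by 0.01 ± 0.25 on the log2 scale (adjusted p = 0.970) and miR-486a-3p by -0.83 ± 0.73 (adjusted p = 0.362), the latter with 23.9 to 1373 CPM at 13.5 months. Of the 8 tested erythroid entries, which count the identical miR-486a and miR-486b rows separately, miR-144-5p was higher, miR-92a-3p was lower and 6 did not pass.

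White cell microRNAs moved in both directions: those that were higher are given here, and the lymphoid miR-181a-5p and miR-181b-5p, given below, were lower. miR-21a-5p, miR-150-5p and miR-146b-5p did not pass. miR-142a-5p, found in blood-forming cells, rose from a median of 1804 CPM (932 to 3167) to 2721 CPM (2321 to 4113), a log2 fold change of 0.58 ± 0.15 (adjusted p = 0.00182). It did not pass with library totals only (0.25, adjusted p = 0.536) or without a filter on reads (0.47, adjusted p = 0.144). miR-223-3p, a microRNA of neutrophils and monocytes, had a log2 fold change of 0.62 ± 0.23 (adjusted p = 0.0237), with a median of 11.8 CPM (4.56 to 28.6) against 20.6 CPM (15.3 to 26.0). The miR-223-3p call was lost without replicates 1 and 4 at 13.5 months (adjusted p = 0.106), and also without replicate 1 alone (0.0619), replicate 6 at 13.5 months (0.0556) or replicate 5 at 16.5 months (0.0539). miR-342-3p, from an intron of Evl, rose from a median of 14.8 CPM (5.54 to 26.9) to 25.2 CPM (19.6 to 35.3), a log2 fold change of 0.89 ± 0.23 (adjusted p = 0.00175). Also higher were miR-23a-3p, by 0.62 ± 0.17 on the log2 scale (adjusted p = 0.00247), miR-3074-5p, by 0.41 ± 0.12 (adjusted p = 0.00396), and miR-19b-3p of the miR-17-92 cluster, by 0.74 ± 0.27 (adjusted p = 0.0230). Of these miR-19b-3p no longer passed without replicate 1 (adjusted p = 0.0599) or replicate 6 (adjusted p = 0.0626) at 13.5 months, nor without replicates 1 and 4 together (adjusted p = 0.0824). It passed in 7 of the 15 alternatives that tested it. Of 16 alternatives miR-223-3p passed in 10, miR-3074-5p in 11, and miR-342-3p and miR-23a-3p in 14 each.

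The let-7 family, which restrains growth and cell cycle genes and is one of the most abundant families of adult tissues, went the other way. Of the 6 tested members 5 fell and 1 did not pass, against 27.6% lower among all 87, and their median log2 fold change was -0.68 beside -0.05. let-7i-5p (chr10:122985698-122985719, minus strand) had 266 to 726 CPM at 13.5 months (median 358) and 151 to 231 CPM at 16.5 months (median 201). Every older library lay below every younger one, and the log2 fold change was -1.08 ± 0.13 (adjusted p = 2.76e-08, edgeR). let-7g-5p, from an intron of Wdr82, fell from a median of 52.9 CPM (33.9 to 67.9) to 32.2 CPM (23.6 to 40.5), a log2 fold change of -0.71 ± 0.14 (adjusted p = 4.82e-05). let-7c-5p fell from a median of 183.1 CPM (105 to 424) to 110.4 CPM (76.2 to 186), a log2 fold change of -0.74 ± 0.19 (adjusted p = 0.00182).

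let-7a-5p, let-7f-5p and let-7d-5p share a precursor cluster on chromosome 13, and let-7a-5p had a median of 189 CPM (97.9 to 495) and 137 CPM (81.3 to 258), a log2 fold change of -0.65 ± 0.22 (adjusted p = 0.0147). let-7f-5p had 238 CPM (93.8 to 469.9) and 156 CPM (111 to 229), a log2 fold change of -0.51 ± 0.20 (adjusted p = 0.0285). let-7d-5p had 176 CPM (69.9 to 273) and 115 CPM (82.9 to 289.98), and its log2 fold change of -0.41 ± 0.20 did not pass (adjusted p = 0.0878). Without replicates 1 and 4 at 13.5 months neither let-7a-5p (adjusted p = 0.106) nor let-7f-5p (adjusted p = 0.116) passed, and let-7f-5p also failed without replicate 1 (adjusted p = 0.0645) or 5 (0.0727) at 13.5 months or replicate 11 at 16.5 months (0.0539). let-7d-5p passed without replicate 2 at 16.5 months (adjusted p = 0.00746) and without replicate 12 at 13.5 months (adjusted p = 0.0257). It was also called lower in 7 of 16 alternatives. let-7j, listed with the seed GAGGUAU, differs from let-7i-5p at 1 of the 22 positions they share, so its reads may be hard to separate from those of let-7i-5p. It fell by 0.80 ± 0.15 on the log2 scale (adjusted p = 4.82e-05), from a median of 32.3 CPM (24.3 to 66.4) to 20.8 CPM (11.6 to 28.7).

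Both members of the miR-103 and miR-107 family, which sit in introns of the pantothenate kinase genes Pank1, Pank2 and Pank3 and bear on lipid and insulin metabolism, were lower. miR-107-3p, from the Pank1 intron, had 62.4 to 175 CPM at 13.5 months (median 85.6) and 38.4 to 58.3 CPM at 16.5 months (median 46.2). The ages did not overlap, and the log2 fold change was -0.92 ± 0.13 (adjusted p = 9.37e-07, edgeR). miR-103-3p had 139.6 to 311 CPM (median 172) and 91.6 to 147 CPM (median 128), a log2 fold change of -0.59 ± 0.12 (adjusted p = 7.09e-05), with 10 of 11 older libraries below all younger ones. Both members of the miR-378 family with enough reads fell as well. miR-378c had 30.4 to 65.0 CPM and 22.6 to 28.3 CPM without overlap, a log2 fold change of -0.70 ± 0.10 (adjusted p = 9.37e-07). miR-378a-3p had 88.1 to 177 CPM and 67.8 to 93.6 CPM, a log2 fold change of -0.54 ± 0.11 (adjusted p = 6.33e-05). Their mature forms are nearly alike, so the division of reads between them is uncertain.

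In the miR-15/16 family, known for restraining Bcl2 and the cell cycle, 2 of 3 tested members were called lower. miR-15a-5p fell from a median of 58.9 CPM (21.3 to 109) to 31.9 CPM (22.3 to 43.9), a log2 fold change of -0.96 ± 0.19 (adjusted p = 4.94e-05). In all but 1 of the 12 younger libraries the level lay above every older one, the exception being replicate 1, the lowest of all 23. miR-15b-5p fell by 0.54 ± 0.16 on the log2 scale (adjusted p = 0.00478), from a median of 195 CPM (67.9 to 235) to 127 CPM (51.0 to 161). The far more abundant miR-16-5p had 2078 to 7758 CPM and 2612 to 5812 CPM, and its log2 fold change of -0.25 ± 0.16 did not pass (adjusted p = 0.195). It was called lower in 4 of 16 alternatives, among them that with rows summed (-0.38, adjusted p = 0.0357).

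Of the miR-181 family, which tunes signalling in developing lymphocytes, 2 of 4 tested members were lower, and differences between members were not tested. miR-181a-5p fell from a median of 186 CPM (118 to 259) to 118 CPM (87.6 to 131), a log2 fold change of -0.69 ± 0.13 (adjusted p = 3.01e-05), and miR-181b-5p from 25.8 CPM (15.8 to 52.4) to 21.3 CPM (17.2 to 25.5), a log2 fold change of -0.42 ± 0.15 (adjusted p = 0.0195). The miR-181b-5p call was lost without replicates 1 and 4 at 13.5 months (adjusted p = 0.101). miR-181c-5p and miR-181d-5p, from a precursor pair on chromosome 8, had log2 fold changes of 0.11 ± 0.29 (adjusted p = 0.792) and -0.19 ± 0.14 (adjusted p = 0.281).

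miR-92a-3p, of the miR-17-92 cluster, had one of the widest ranges. At 13.5 months it had 5309 to 71270.0 CPM (median 13724) and at 16.5 months 4338 to 17873 CPM (median 10354), a log2 fold change of -1.21 ± 0.35 (adjusted p = 0.0045). The highest value belonged to replicate 1 at 13.5 months, and without replicates 1 and 4 the log2 fold change was -0.72 and no longer passed (adjusted p = 0.0572). miR-25-3p, with the same seed, had a log2 fold change of -0.07 ± 0.10 (adjusted p = 0.579). miR-93-5p fell by 0.57 ± 0.18 on the log2 scale (adjusted p = 0.00811).

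Other microRNAs that fell had no tested family member or 1 member that did not pass. miR-532-5p, at low levels, went from 13.7 to 42.0 CPM (median 28.2) to 5.26 to 15.5 CPM (median 11.3), a log2 fold change of -1.24 ± 0.21 (adjusted p = 7.69e-06). miR-1198-5p, from an intron of Gripap1 on the X chromosome, went from 48.2 to 256 CPM (median 93.2) to 36.3 to 73.1 CPM (median 52.3), a log2 fold change of -1.12 ± 0.19 (adjusted p = 1.07e-05). miR-130b-3p fell by 0.53 ± 0.14 on the log2 scale (adjusted p = 0.00169), from a median of 50.3 CPM (39.2 to 74.4) to 32.8 CPM (27.9 to 52.6), while miR-130a-3p had a log2 fold change of -0.05 ± 0.11 (adjusted p = 0.770). miR-148a-3p fell by 0.82 ± 0.31 (adjusted p = 0.0255), and miR-148b-3p had a log2 fold change of -0.53 ± 0.26 that did not pass (adjusted p = 0.0891). In 5 of 16 alternatives miR-148b-3p was called lower, among them those with 1 RUVs factor (-0.61, adjusted p = 4.03e-05) and 2 (-0.42, 0.00387). The miR-148a-3p call was lost without replicate 12 at 13.5 months (adjusted p = 0.0698). miR-222-3p, miR-652-3p and miR-8114 fell by 0.32 ± 0.12, 0.35 ± 0.13 and 0.75 ± 0.26 on the log2 scale, with adjusted p-values of 0.0297, 0.0285 and 0.0147. miR-222-3p and miR-652-3p each passed in 10 of 16 alternatives. The miR-222-3p call was lost in 5 of the 23 omissions of a single library (replicates 2 and 3 at 13.5 months and 2, 7 and 10 at 16.5 months) with adjusted p-values of 0.0576 to 0.0704. That of miR-652-3p was lost without replicate 3 at 13.5 months (0.0519) or replicate 2 at 16.5 months (0.0536). miR-8114 did not pass without replicates 1 and 4 at 13.5 months (log2 fold change -0.55, adjusted p = 0.0594).

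In 3 groups of related microRNAs no member passed the main test. All 5 tested members of the group of miR-10, miR-99, miR-100 and miR-125 missed the threshold, with log2 fold changes of 0.33 ± 0.29 for miR-10a-5p, -0.06 ± 0.28 for miR-10b-5p, -0.16 ± 0.24 for miR-99b-5p, 0.18 ± 0.31 for miR-125a-5p and 0.03 ± 0.27 for miR-125b-5p. The liver and gut microRNAs miR-192-5p and miR-194-5p, whose precursors lie side by side on chromosome 19, had log2 fold changes of 0.24 ± 0.20 and 0.26 ± 0.17 (adjusted p = 0.347 and 0.233), and both passed without replicate 12 at 13.5 months (adjusted p = 0.0395 and 0.0306). miR-146a-5p and miR-146b-5p, which damp inflammatory signalling, had -0.28 ± 0.29 and -0.08 ± 0.28 (adjusted p = 0.429 and 0.847). RUVs factors adjust for unwanted variation, a step the study's methods describe. With 2 of them miR-99b-5p (-0.77, adjusted p = 2.63e-04), miR-192-5p (0.39, 0.0057), miR-194-5p (0.40, 0.00921) and miR-146a-5p (-0.59, 0.0208) passed. With 1 factor miR-125a-5p passed (0.46, adjusted p = 0.00648). miR-10a-5p, miR-10b-5p, miR-125b-5p and miR-146b-5p passed with neither. Rarer members of these groups, tested with the lower filter on reads described at the end, did pass. miR-99a-5p was higher by 0.93 ± 0.21 on the log2 scale (adjusted p = 9.18e-04), miR-100-5p had a log2 fold change of -1.06 ± 0.37 (adjusted p = 0.0289), and miR-215-5p was higher by 0.94 ± 0.20 (adjusted p = 3.41e-04). miR-24-3p and miR-27b-3p, relatives by cluster of miR-23a-3p, had -0.01 ± 0.27 and 0.09 ± 0.13 (adjusted p = 0.983 and 0.606).

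**Figure D2:**
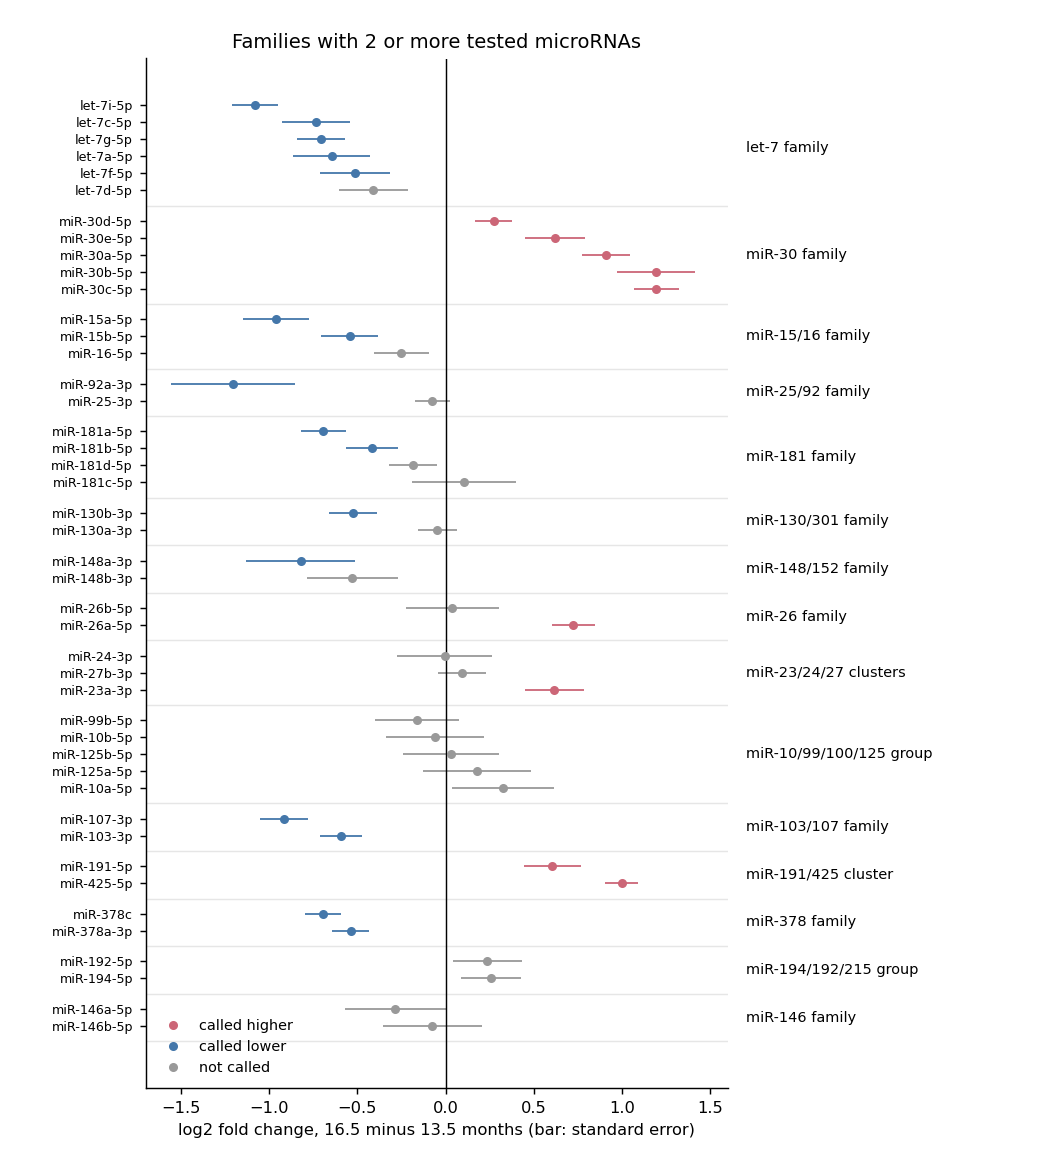
Log2 fold change at 16.5 against 13.5 months (x axis, log scale of base 2) with its standard error for every tested microRNA of the families with 2 or more tested members; red is called higher, blue called lower, grey not called. The 5 miR-30 members lie to the right of 0 and the 6 let-7 members to the left, of which let-7d-5p was not called.

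Over the 12 seeds that 2 or more tested microRNAs with a sequence had in common, 33 microRNAs in all, 18 were called (54.5%, beside 49.4% of all 87) and 9 seeds had a call. Where a seed had several calls, as 5 seeds did, these pointed the same way, and 0 seeds had calls in both directions. With the lower filter on reads 1 seed did, ACCCGUA, which miR-99a-5p (higher) and miR-100-5p (lower) have in common. GC content was 45.7% ± 8.75 (SD) over the 16 microRNAs called higher with a sequence, 46.1% ± 8.15 over the 22 called lower and 48.1% ± 8.46 over the 35 not called. As a description across the 73 microRNAs, which share the same libraries, GC content and log2 fold change had a Pearson r of -0.11. Lengths ranged from 21 to 25 bases with a mean of 22.2 in each of these sets, and U was the first base of 9 of the 16, 12 of the 22 and 19 of the 35.

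The level of 1 microRNA relative to another in the same library does not depend on how libraries are scaled. Ratios were therefore formed for all 24 pairs of tested microRNAs that are arms of 1 precursor (4 pairs) or lie within 10000 bases on the same strand (20 pairs), and compared between ages by a permutation test with 100000 resamples. This comparison was added after the levels had been seen. After Benjamini-Hochberg adjustment 4 of the 24 passed, and 10 passed without replicates 1 and 4 at 13.5 months, among them the same 4. The log2 ratio of miR-30a-3p to miR-30a-5p went from between -5.63 and -4.10 at 13.5 months (median -4.83) to between -7.39 and -5.34 at 16.5 months (median -6.01), a difference of -1.32 (adjusted p = 0.00048, permutation test). The 5p arm thus gained on the 3p arm of the same hairpin, with some overlap between the ages.

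The arms of miR-130b also shifted. The log2 ratio of miR-130b-3p to miR-130b-5p had a mean of 1.73 ± 0.62 (SD) over the 12 younger libraries and 0.63 ± 0.37 over the 11 older ones, differing by -1.10 (adjusted p = 0.00048, permutation test). Relative to miR-16-5p, encoded next to it on chromosome 14, miR-15a-5p fell from a mean log2 ratio of -6.30 ± 0.50 to -6.98 ± 0.12, a difference of -0.68 (adjusted p = 0.0024, permutation test). miR-19b-3p against miR-92a-3p differed by 1.90 (adjusted p = 0.023, permutation test), and by 1.41 without replicates 1 and 4 at 13.5 months (adjusted p = 0.036, permutation test). miR-16-5p, miR-19b-3p and miR-92a-3p each have a second precursor elsewhere, so these ratios do not belong to 1 transcript. miR-191-5p against miR-425-5p (difference -0.35, adjusted p = 0.14), miR-15b-5p against miR-16-5p (-0.30, adjusted p = 0.19) and miR-144-5p against miR-451a (0.97, adjusted p = 0.14) missed the threshold in the permutation test. Without replicates 1 and 4 the miR-30a, miR-130b and miR-15a ratios differed by -1.32, -1.16 and -0.72.

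**Figure D3:**
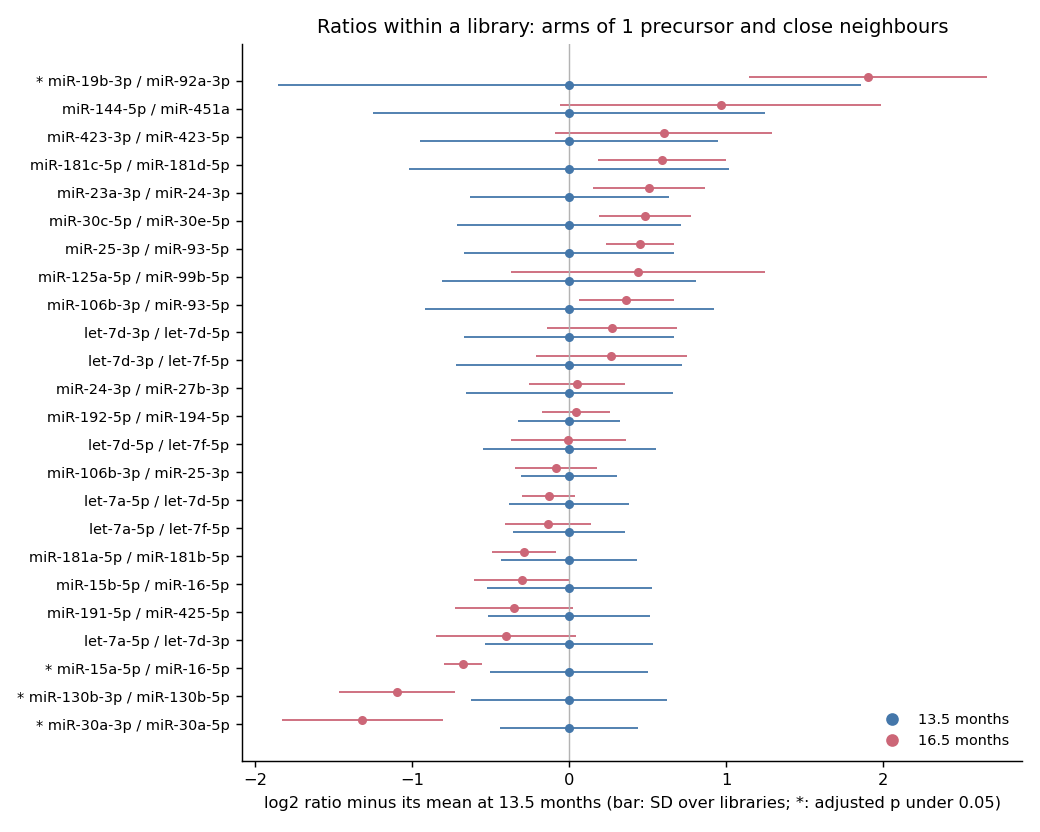
Mean log2 ratio of 2 microRNAs in the same library at 13.5 months (blue) and 16.5 months (red), shifted so that the 13.5-month mean is at 0, with the SD over libraries as bars; asterisks mark the 4 of 24 pairs with an adjusted p under 0.05. miR-30a-3p/miR-30a-5p, miR-130b-3p/miR-130b-5p and miR-15a-5p/miR-16-5p lie to the left of 0 and miR-19b-3p/miR-92a-3p to the right.

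The libraries at 12 months (9) and 15 months (5) place these differences among the other ages, without a test. Of the 43 called microRNAs, the mean log2 level at 12 months was closer to that at 16.5 months than to that at 13.5 months for 31, and the mean at 15 months for 34. Both held for 27 and neither for 5. Among the 44 that were not called the numbers were 28 at 12 months and 32 at 15 months. For 17 of the 19 microRNAs called higher the 13.5-month mean was the lowest of the 4 ages, and for 22 of the 24 called lower it was the highest. The 16.5-month mean was the highest of 4 for 11 of the 19 and the lowest for 10 of the 24. Called microRNAs were chosen by the contrast of 16.5 with 13.5 months, which by itself favours an extreme mean at either of these ages. How often such extremes occurred among the 44 not called was not counted. The 13.5-month means include the libraries of that age that stood apart, and these means were not recomputed without them. miR-425-5p had mean levels of 193 CPM at 12 months, 125.2 at 13.5, 172 at 15 and 250.01 at 16.5 months. let-7i-5p had 235, 408, 175 and 193 CPM, and miR-1198-5p 54.7, 117, 51.8 and 53.5 CPM, so that the 13.5-month mean was the one set apart. miR-342-3p had 13.9, 13.7, 18.2 and 25.4 CPM, and miR-532-5p 18.9, 26.9, 16.3 and 11.4 CPM, with the 16.5-month mean at the end of the order.

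**Figure D4:**
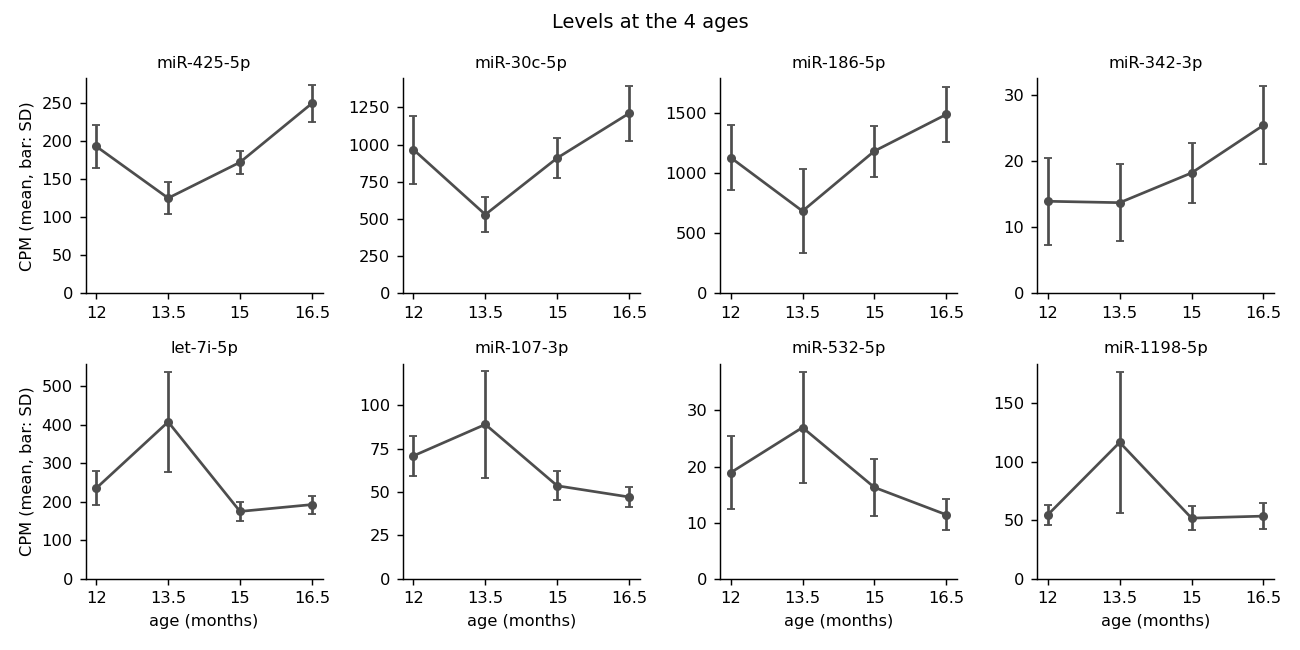
Mean level in CPM with SD (y axis, from 0) at 12 months (n = 9), 13.5 months (n = 12), 15 months (n = 5) and 16.5 months (n = 11) for 8 microRNAs; lines join means of different groups of libraries. let-7i-5p and miR-1198-5p have their highest mean at 13.5 months, while miR-425-5p and miR-342-3p have their highest at 16.5 months.

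The 13.5-month libraries were also the more variable. The coefficient of variation over libraries had a median of 38.2% at 13.5 months and 22.7% at 16.5 months, and it was larger at 13.5 months for 79 of the 87 microRNAs. Variation within ages was largely shared, since 1 component held 67.8% of the variance of the deviations from the age means. At its ends stood miR-486a-3p, miR-423-5p and miR-328-3p on one side and miR-451a and miR-181c-5p on the other, and replicate 1 at 13.5 months was the library farthest along it. Its part in the differences between ages was not tested.

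Of the marker lists for other tissues, the liver list summed to 272.5 to 1299 CPM at 13.5 months and 470.9 to 878.1 CPM at 16.5 months, with 3 of 4 members tested, of which miR-148a-3p was lower. The brain list summed to 77.3 to 251 CPM and 124.8 to 210.2 CPM, nearly all of it miR-128-3p, its 1 tested member, which did not pass. The muscle list summed to at most 13.4 CPM. The members best known as defining these tissues were at or near 0. The liver microRNA miR-122-5p had at most 4 reads in any of the 23 libraries, the muscle microRNAs miR-1a-3p and miR-208a-3p had 0, and the neuronal miR-124-3p and miR-9-5p had at most 1 and 2 reads. The 6 myeloid markers summed to 975 to 3346 CPM at 13.5 months and 2436 to 4289 CPM at 16.5 months, with 2 of 3 tested members higher and 0 lower, beside 21.8% higher and 27.6% lower among all 87. Most of this sum was miR-142a-5p, with a median of 1804 CPM of the list's 1918 at 13.5 months, and the other of the 2 calls, miR-223-3p, was the one lost without replicate 1 at 13.5 months. Neither miR-142a-5p nor miR-223-3p passed with library totals only (adjusted p = 0.536 and 0.476) or without a filter on reads (0.144 and 0.206). The 6 lymphoid markers summed to 255 to 803 CPM and 294 to 759 CPM, with 1 of 5 higher and 2 lower. The 6 platelet and endothelial markers summed to 28.9 to 61.4 CPM and 19.7 to 38.7 CPM, and the 1 that was tested, miR-222-3p, was lower. The part of blood cell composition in these differences was not tested.

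A filter of over 1 read in 50% or more of all libraries added 236 rarer microRNAs to the test. Over the 323 microRNAs now tested 86 passed (26.6%), 38 higher and 48 lower, and 45 of these were among the rarer 236, 23 higher and 22 lower. Of the 43 microRNAs above, 39 passed again. The smallest p belonged to miR-3969, which had 1.73 to 5.15 CPM at 13.5 months and 149.7 to 257 CPM at 16.5 months, a log2 fold change of 5.67 ± 0.33 (adjusted p = 1.44e-17, edgeR). Its mean was 23.98 CPM at 12 months and 6.00 CPM at 15 months, and its highest library at those ages had 47.3 CPM, so that no library of the other 3 ages reached the 16.5-month range. The RefSeq precursor lies on chromosome 5 (chr5:87595902-87595993, minus strand) and overlaps no other GENCODE gene.

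Other microRNAs added by this filter were less far apart. miR-15b-3p rose from 1.73 to 6.44 CPM (median 4.13) to 7.22 to 15.4 CPM (median 13.3), a log2 fold change of 1.48 ± 0.19 (adjusted p = 1.30e-07) without overlap, while the 5p arm of the same hairpin fell. miR-340-3p rose from 0.69 to 5.33 CPM to 5.72 to 10.5 CPM, also without overlap, a log2 fold change of 1.43 ± 0.22 (adjusted p = 4.42e-06). miR-872-3p rose by 1.66 ± 0.31 on the log2 scale (adjusted p = 7.60e-05), with a median of 3.5 reads per library at 13.5 months. miR-221-3p, the cluster partner of miR-222-3p, fell from 6.83 to 24.9 CPM to 3.60 to 10.3 CPM, a log2 fold change of -1.31 ± 0.20 (adjusted p = 4.40e-06). miR-210-3p, which is induced by hypoxia, fell from a median of 10.4 CPM (1.52 to 16.5) to 2.50 CPM (1.05 to 4.68), a log2 fold change of -1.85 ± 0.32 (adjusted p = 2.26e-05). Precision at these levels is limited by counting, which the ranges above include.

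**Figure D5:**
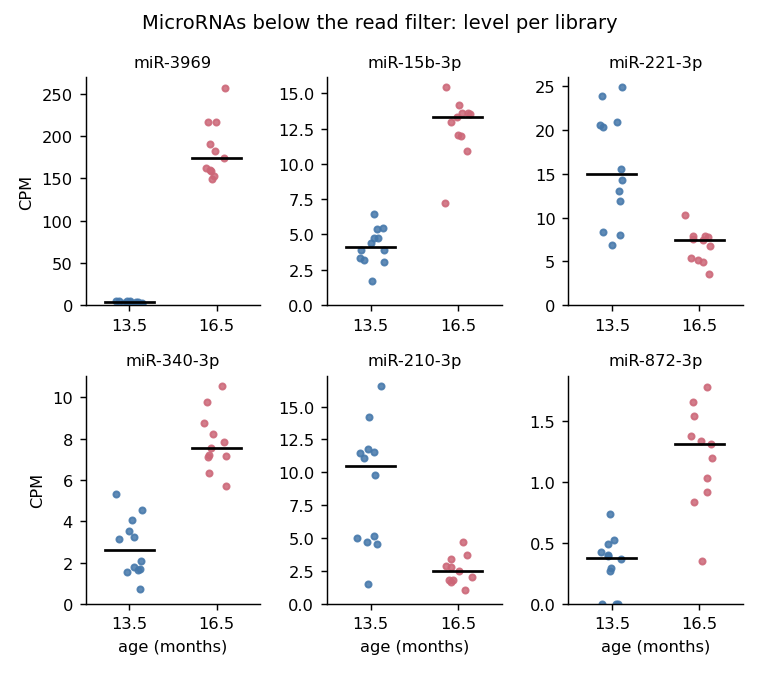
Level in CPM (y axis, from 0) per library at 13.5 months (blue, n = 12) and 16.5 months (red, n = 11), with the median as a line, of the 6 microRNAs with the smallest p among the 236 with too few reads for the main filter. miR-3969 lies at or below 5.15 CPM in all 13.5-month libraries and at or above 149.7 CPM in all 16.5-month libraries.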

How the data were processed

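Small RNA libraries of mouse blood were trimmed with cutadapt, checked with FastQC 0.11.5 and counted by the authors with miRDeep2 (default settings, Bowtie index) against mm10 and miRBase, with a small margin around each mature position, without mismatches and after discarding reads under 18 bases. The authors deposited raw counts per mature microRNA and precursor (2241 rows for 1915 microRNAs), not normalized. Their methods describe counts summed over loci, whereas the deposited table keeps the rows apart. The deposited normalized signal of 337 microRNAs equalled the first-row count times 1 factor per library in 100% of values, and only these factors were used. Columns left out numbered 0.

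First-row counts were fitted with edgeR 4.0.16 (R 4.3.3): over 100 reads in 50% or more of the 37 libraries, TMM factors, quasi-likelihood F-test of 16.5 minus 13.5 months with all 4 ages in the fit, Benjamini-Hochberg adjustment, threshold 0.05. The standard error is the log2 fold change over the square root of F. The tested microRNAs held 99.9% of counts, and the common biological coefficient of variation was 0.405. Library totals include both identical miR-486-5p rows, which lowers CPM. No 2 libraries of an age agreed within counting error (smallest chi-square over its degrees of freedom 18.3 over 121 pairs). Fits were tested on simulated data. The microRNAs named were the 12 higher and 12 lower with the smallest p, the 5 called with the largest change, 6 rare ones and tested family members. The other 8 that passed, miR-30a-3p among them, were named after their values were seen. Members and lists were chosen with earlier results of these data known. Ratios used log2(reads + 0.5), positions of other ages log2(CPM + 1). Alternatives covered tool (DESeq2 1.42.0), scaling, filters, summed rows, RUVs factors, replicate block and libraries left out. Precursors were placed with RefSeq and GENCODE vM21 genes, both on GRCm38. PCR copies cannot be told from molecules.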

Additional observations from a re-analysis of the deposited data

Results flagged for a closer look

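No group of more than 10 libraries was examined for outlying libraries, which leaves the 12-month (n = 9) and 15-month (n = 5) levels of the named microRNAs, 126 groups in all. In 9 of them 1 library lay far from the others by Dixon's criterion, about 1 in 20 groups being past it by chance. At 12 months the highest library had 16360.0 CPM of miR-92a-3p (next 9338), 5546 CPM of miR-25-3p (next 4300.0), 113 CPM of miR-181c-5p (next 61.3), 243 CPM of miR-10b-5p (next 89.2), 74.4 CPM of miR-146a-5p (next 28.4) and 19050.0 CPM of miR-451a (next 9920.0). At 15 months the lowest library had 1313 CPM of miR-26a-5p (next 1680.0) and 668 CPM of miR-140-3p (next 1064), and the highest had 315 CPM of miR-30e-5p (next 236). These libraries enter the shared estimate of spread but not the contrast of 16.5 with 13.5 months.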

How the results depend on the processing

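The number of microRNAs called (43) was within 1.5 times under every alternative but 2: 23 with library totals only (5 higher), and 86 with the low filter (38 higher, 48 lower). The low-filter count itself fell to 36 with library totals only. The cause was not tested, beyond the larger number of microRNAs that the low filter tests. Other counts were 45 with DESeq2, 40 with the 23 libraries alone, 36 with totals outside miR-486, 44 with the authors' factors (17 higher, 27 lower), 56 of 960 without a filter, 43 with rows summed (15 higher, 28 lower), 54 and 50 with 1 and 2 RUVs factors, and 41 to 50 over every TMM reference library. Leaving out each library in turn gave 39 to 46, with 16 to 22 higher and 21 to 25 lower. A similar count did not always mean the same microRNAs. Without a filter 25 of the 43 were kept (8 higher, 17 lower) and 31 others were called. With 2 RUVs factors 36 were kept and 14 others called, and with 1 factor 43 and 11. With the replicate block 44 were called (22 higher, 22 lower): miR-148a-3p (adjusted p = 0.0969), miR-222-3p (0.0507) and miR-30a-3p (0.0543) no longer passed, and let-7d-5p (0.00558), miR-192-5p (0.0338), miR-194-5p (0.0342) and miR-451a (0.0322) did. Same-numbered libraries correlated between -0.78 and 0.78 over 11 pairs, 6 over 0.1, and 0 libraries correlated best with their own number. Since 1 component held 67.8% of the variance within ages, this check cannot decide whether the numbers pair the samples. The low-filter count was 83 with the block.

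The miR-486a-5p share differed by -0.30 points in medians (p = 0.93, permutation test), against 1.43 in means, and the log2 reads outside miR-486 by -0.0489 to 0.23 with each library left out. None of the 11 named microRNAs whose sign turned under some alternative had passed the test. With library totals only the log2 fold changes were -0.13 for miR-181c-5p, -0.11 for miR-26b-5p, -0.11 for miR-27b-3p, -0.13 for miR-125b-5p and -0.0051 for miR-192-5p. With rows summed they were -0.0156 for miR-181c-5p, -0.0958 for miR-26b-5p, -0.0411 for miR-27b-3p, -0.11 for miR-125b-5p and -0.12 for miR-486a-5p. With the TMM reference that called the fewest higher they were -0.015, -0.0696, -0.039, -0.0811 and -0.12 for the same 5. Without replicates 1 and 4 at 13.5 months, an alternative added after the data were seen, they were -0.0516 for miR-181c-5p, -0.0466 for miR-26b-5p, -0.009 for miR-27b-3p and 0.40 for miR-486a-3p. For miR-26b-5p, miR-125b-5p and miR-486a-5p they were -0.0382, -0.0481 and -0.0546 with the low filter, -0.0477, -0.0359 and -0.0527 with the authors' factors (miR-27b-3p -0.0002), and -0.014, -0.0674 and -0.0474 without a filter. miR-26b-5p had -0.12 with 1 RUVs factor and -0.21 with 2, miR-486a-3p 0.0056 and 0.26, and with 2 factors miR-10a-5p had -0.0873, miR-125b-5p -0.14 and miR-146b-5p 0.0211. miR-24-3p had 0.0352 with the filter on 23 libraries, 0.19 with the replicate block and 0.0452 with the TMM reference that called the most higher. The block also gave -0.0061 for miR-125b-5p and 0.087 for miR-146b-5p. miR-486a-5p had -0.0476 and miR-125b-5p -0.0211 in the 23 libraries alone, and miR-486a-5p -0.0165 with DESeq2 and with median-of-ratios factors. Leaving out each library in turn gave ranges of -0.012 to 0.27 for miR-181c-5p, -0.0307 to 0.20 for miR-26b-5p, -0.10 to 0.13 for miR-24-3p, -0.24 to 0.0052 for miR-10b-5p, -0.083 to 0.13 for miR-125b-5p, -0.17 to 0.14 for miR-146b-5p and -0.11 to 0.24 for miR-486a-5p. Of 941 values of named microRNAs under the alternatives, single libraries left out not counted, 823 kept direction and side of the threshold.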

Other observations

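With the filter of more than 1 read, families that the main filter covered in part had more tested members. 7 of 9 tested let-7 members and 4 of 5 tested miR-378 members were lower at 16.5 months and 0 were higher, with median log2 fold changes of -0.73 and -0.63 beside -0.03 over the 323 microRNAs. Both members of the miR-221 and miR-222 family were lower (median -0.86), both members of the miR-191 and miR-425 cluster were higher (median 0.72), and 0 of 2 miR-146 members passed. The miR-15/16 family had 2 of 6 lower, the family of miR-17, miR-20, miR-93 and miR-106 1 of 4 lower, and the miR-18/19 members 0 of 3 called. The 1 tested muscle microRNA, miR-133a-3p, had a log2 fold change of -0.98 and did not pass. These lists overlap those described above, and their members share the same libraries.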
